A study of Mus musculus with 12 samples.

Results

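Cholesterol synthesis and sterol regulation were followed in mouse liver through 29 genes. They are 19 enzymes of the pathway that makes sterols from acetyl units and of its branch to prenyl groups, 5 genes for a sterol carrier and for regulators of the pathway, and 5 genes driven by the liver X receptors (LXR). They were taken from a list of gene names matched to the Entrez identifiers of the count table, which held 27179 genes in all. Every one of the 29 was present, and every one passed the filter on low counts that left 13947 genes for testing. Bulk RNA-seq had been run on 12 livers, 1 library for each, in 4 groups of 3. The groups were chow diet with empty vector (CD Vec), chow diet with oncogenes (CD c-MET/β-catenin), low-protein diet with empty vector (LPD Vec) and low-protein diet with oncogenes (LPD c-MET/β-catenin). Plasmids for human c-MET and for a β-catenin lacking its N-terminal part, both under the EF1α promoter, were delivered to hepatocytes by hydrodynamic tail vein injection together with Sleeping Beauty transposase, which integrates them and gives rise to hepatocellular carcinoma. Vec mice received the empty vector in the same way. Male mice had eaten their diet since before the injection and stayed on it, and all groups were harvested after a fast, at the time set by the end point of the CD mice with oncogenes. They were young adults. Their background is variously named as a 129/Ola and C57BL/6 mix and, in the methods, as C57/Bl3, and no age or strain is given in the labels. The labels name the cell type as hepatocyte, but whole liver tissue was used, so tumor, non-tumor and non-parenchymal cells are mixed, and fewer cells of a type cannot be told apart from less RNA per cell.

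Cholesterol is built in the endoplasmic reticulum, and the liver is a main site of its synthesis. The transcription factor SREBP2, encoded by Srebf2, is held in that membrane when sterols are plentiful. When sterols fall, the escort protein Scap carries it to the Golgi, where it is cut and released to switch on the genes of the pathway, while Insig proteins retain Scap and so restrain it. Oxysterols made from cholesterol activate LXR, which switches on transporters that move sterol out of the cell. SREBP2-driven and LXR-driven genes therefore report on opposite ends of sterol supply. The SREBP2-driven list used here is the 19 enzymes with Stard4, Insig1 and Srebf2, and the LXR-driven transporters are Abca1, Abcg1, Abcg5 and Abcg8.

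Levels are given as CPM, the count of a gene relative to the library total, scaled by the trimmed mean of M values, and differences as log2 fold changes ± SE from edgeR's quasi-likelihood test, fitted to all genes and 12 libraries together. Unless another tool is named, a gene was called at a Benjamini-Hochberg adjusted p under 0.05 over the 13947 genes. Library totals ranged from 19476209 to 31990267 counts. The 3 genes that report β-catenin activity (Glul, Axin2 and Lgr5) summed to 756 to 1004 CPM in CD Vec, 6727 to 8739.6 in CD c-MET/β-catenin, 965 to 1231 in LPD Vec and 2520.2 to 4165 in LPD c-MET/β-catenin, so both oncogene groups stood above their controls. Of 6 hepatocyte markers, 5 were found, and they summed to 95550.2 to 100287 CPM in CD Vec, 84792 to 93043 in CD c-MET/β-catenin, 82126 to 110656 in LPD Vec and 60849 to 94303 in LPD c-MET/β-catenin, with 2 of the 5 lower on CD with oncogenes. Dataset numbers in the header of the table fell into 3 runs, and the labels do not say what they stand for. Run 1 held only CD c-MET/β-catenin libraries (2), run 3 held only Vec libraries (2 of CD and 1 of LPD), and run 2 held the other 7, at least 1 of each group.

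The sterol synthesis genes did not move with the oncogenes or with the diet in a single direction. Their average was high in CD c-MET/β-catenin and in LPD Vec livers, and low in LPD c-MET/β-catenin livers. Averaged over the 22 genes of the SREBP2-driven list, log2 CPM relative to the CD Vec mean was 0.13, -0.49 and 0.37 in CD Vec replicates 1, 2 and 3, 0.35, 1.004 and 1.01 in CD c-MET/β-catenin, 0.77, 0.90 and 0.56 in LPD Vec and -0.77, -0.32 and -0.70 in LPD c-MET/β-catenin. The 3 LPD c-MET/β-catenin livers lay below all 6 livers of CD c-MET/β-catenin and LPD Vec, while CD Vec replicate 2 fell among them and CD c-MET/β-catenin replicate 1 lay just below CD Vec replicate 3. The 4 LXR-driven transporters, averaged in the same way, were at 0.41, -0.45 and 0.04 in CD Vec, -0.01, 0.10 and 0.11 in CD c-MET/β-catenin, -0.08, 0.04 and -0.31 in LPD Vec and -0.04, -0.03 and 0.10 in LPD c-MET/β-catenin. All 9 libraries of the other groups lay inside the range of CD Vec on that list. The difference between both lists in each library, SREBP2-driven minus LXR-driven, was -0.29, -0.04 and 0.33 in CD Vec, 0.37, 0.91 and 0.90 in CD c-MET/β-catenin, 0.85, 0.86 and 0.87 in LPD Vec and -0.73, -0.29 and -0.80 in LPD c-MET/β-catenin. On this difference LPD c-MET/β-catenin replicate 2 lay just below CD Vec replicate 1, and the 3 LPD Vec livers were nearly equal. No test was run on these averages, since the genes were chosen with earlier results of these data known.

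**Figure D1:**
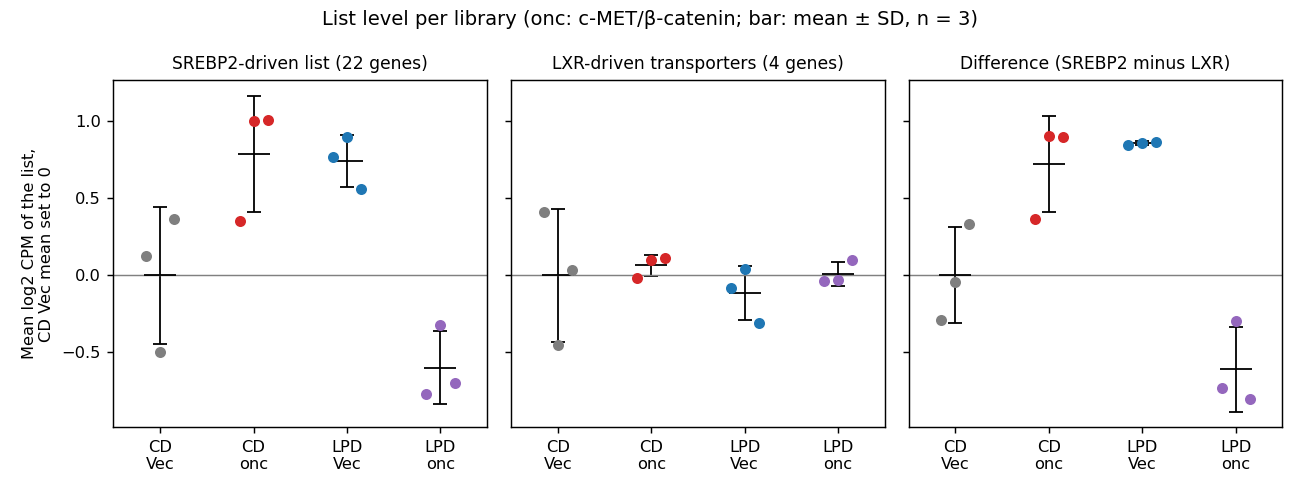
Each point is 1 library, and the y axis is the mean log2 CPM of a gene list with the CD Vec mean of each gene set to 0. Black bars are the mean ± SD of 3 libraries, and onc stands for c-MET/β-catenin. The SREBP2-driven list averaged 0.79 in CD c-MET/β-catenin, 0.74 in LPD Vec and -0.60 in LPD c-MET/β-catenin, while the LXR-driven transporters stayed between -0.12 and 0.06.

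Gene by gene, 13 of the 22 SREBP2-driven genes shared a single order of group means, lowest in LPD c-MET/β-catenin, then CD Vec, then LPD Vec, and highest in CD c-MET/β-catenin. The lowest mean was in LPD c-MET/β-catenin for 20 of the 22, the exceptions being Ggps1 and Stard4. The highest mean was in CD c-MET/β-catenin for 14 and in LPD Vec for 7 (Idi1, Tm7sf2, Msmo1, Hsd17b7, Sc5d, Stard4 and Insig1). Neighbours at the top of that order, CD c-MET/β-catenin and LPD Vec, overlapped in all enzymes but Mvk, Ggps1, Ebp and Sc5d. Neighbours at its bottom, CD Vec and LPD c-MET/β-catenin, overlapped in all enzymes but Mvd, Tm7sf2, Msmo1, Ebp and Dhcr7. No share over all genes is given for these orders and overlaps, so they only describe the genes named.

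**Figure D2:**
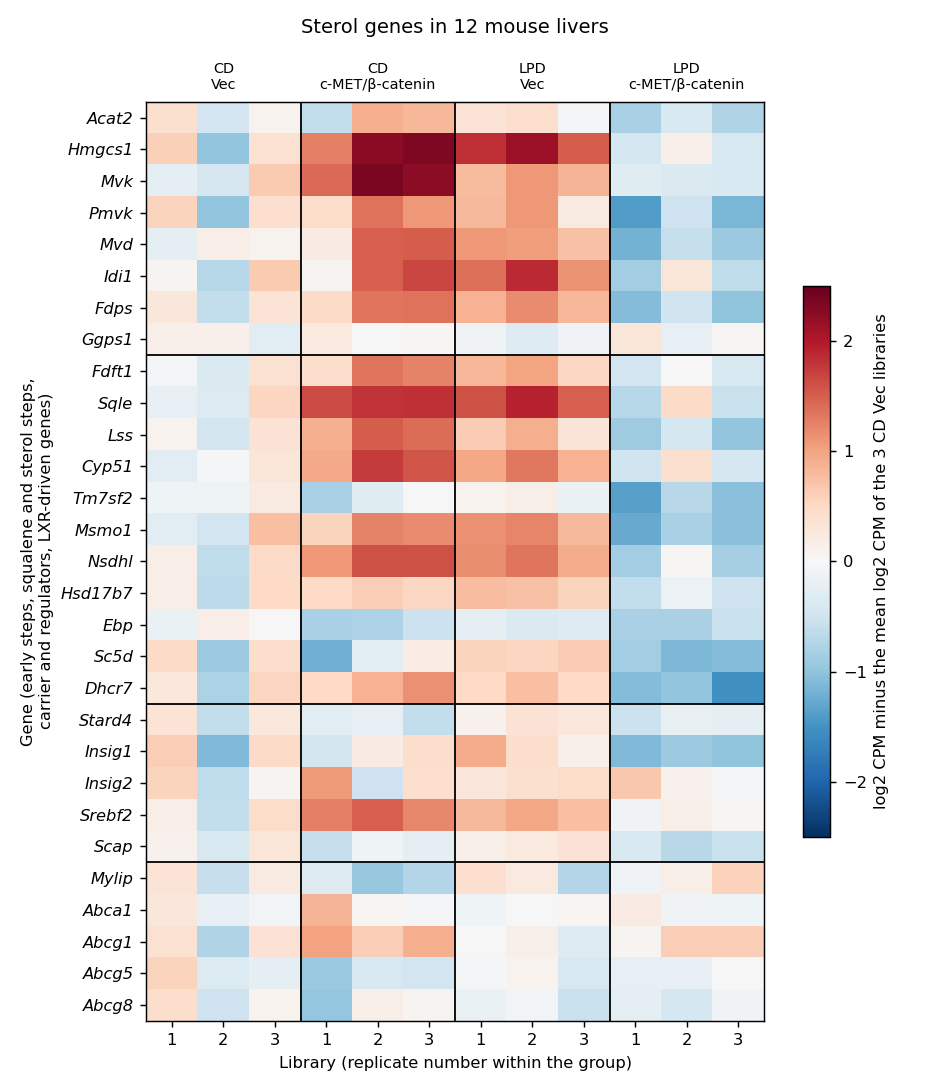
Rows are the 29 genes, in the order early steps, squalene and sterol steps, carrier and regulators, and LXR-driven genes. Columns are the 12 libraries, and color is log2 CPM minus the mean log2 CPM of the 3 CD Vec libraries. Most enzymes are red in CD c-MET/β-catenin and LPD Vec and blue in LPD c-MET/β-catenin, while Ggps1 stays near white.

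On CD, c-MET/β-catenin livers were compared with Vec livers to ask what the oncogenes do on a standard diet. Of the 29 genes, 11 rose and 2 fell, where 18.7% of all tested genes rose and 16.7% fell. The 11 were the enzymes Hmgcs1, Mvk, Mvd, Fdps, Fdft1, Sqle, Lss, Cyp51, Msmo1 and Nsdhl together with Srebf2, with log2 fold changes from 0.92 (Msmo1) to 1.98 (Mvk). Ebp and Abcg5 fell. Groups did not overlap, oncogene livers above Vec, for 11 of the 29, against 22.2% of all genes. The median log2 fold change was 0.97 over the SREBP2-driven list, 0.05 over the LXR-driven transporters and -0.01 over all genes. The dataset runs moved with this comparison, since 2 of 3 CD c-MET/β-catenin libraries were in run 1 and 2 of 3 CD Vec libraries in run 3. With the runs as a term only Mvk remained called higher and no gene lower, and genes called over the whole table dropped from 4933 to 945, while the median of the SREBP2-driven list was 0.88. Within run 2 a single library stands for each CD group, so the fit of its 7 libraries takes its spread from the LPD groups and assumes that the lone CD libraries vary alike, here and in the other comparisons that use them. The median was 0.74 in that fit, which called 4 of the 29 genes higher (Hmgcs1, Mvk, Mvd and Srebf2) and 1 lower (Stard4, while Ebp and Abcg5 were no longer called). Without CD Vec replicate 2, which was the lowest of its group in 25 of the 29 genes, the count of lower genes went from 2 to 5 (Ebp, Abcg5, Stard4, Scap and Mylip), whereas it was 1 without any of 9 other libraries, only Ebp remaining.

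On LPD, 10 of the 19 enzymes fell with the same oncogenes, 7 of which had risen on CD. No gene of the 29 rose and 10 fell, against 1.15% of all genes that rose and 0.165% that fell. The 10 were Hmgcs1, Mvd, Fdps, Sqle, Lss, Tm7sf2, Msmo1, Nsdhl, Hsd17b7 and Dhcr7, all enzymes, with log2 fold changes from -2.09 (Msmo1) to -1.03 (Tm7sf2). They made up 10 of the 23 genes called lower in the whole table, or 43.5%. Oncogene livers lay wholly below Vec livers in 22 of the 29 genes, where 11.6% of all genes did so. No higher gene was found at an unadjusted p under 0.05 or with DESeq2 either. DESeq2 called 19 lower, the 10 with Mvk, Pmvk, Idi1, Fdft1, Cyp51, Sc5d, Srebf2, Insig1 and Scap. Of the enzymes, Ebp, Tm7sf2 and Sc5d had fitted values below 0 on both diets, and Ggps1 above 0 on both. Of the other genes, Stard4, Insig1, Scap and Abcg5 were below 0 on both, and Abca1 and Abcg1 were above 0 on both. The median log2 fold change was -1.47 over the SREBP2-driven list, 0.01 over the LXR-driven transporters and 0.01 over all genes. The count of lower genes rested on single libraries, as it was 2, 1 and 6 when LPD Vec replicates 1, 2 and 3 were left out, 5 when either replicate 1 or 3 of LPD c-MET/β-catenin was, and 16 when CD Vec replicate 2 was, while the median of the list stayed between -1.57 and -1.36. Msmo1 was the single gene called in all 12 fits that left out 1 library, and Fdps was lost only without LPD Vec replicate 2. With the header runs as a term 7 genes were called lower, and with the libraries of run 2 alone 11.

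Between diets in Vec livers, none of the 29 genes passed the test in either direction, where 0.186% of all genes were higher and 0.122% lower on LPD. At an unadjusted p under 0.05, 13 were higher on LPD and 1, Ebp, was lower, where 1377 of all 13947 genes had such a p in either direction. DESeq2 called 5 higher (Hmgcs1, Sqle, Cyp51, Nsdhl and Srebf2), and so the absence of calls depended on the tool. LPD Vec livers lay wholly above CD Vec livers in 13 of the 29, against 8.13% of all genes, and the median over the SREBP2-driven list was 0.69 on the log2 scale. Nearest to the threshold was Sqle, at 1.63 ± 0.31 (adjusted p = 0.0532) by edgeR. In run 2 alone, with CD Vec replicate 3 as the only CD Vec library, the median was 0.28.

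Between diets in c-MET/β-catenin livers, none of the 29 genes was higher on LPD and 17 were lower, against 8.66% and 11.3% of all genes. DESeq2 called 0 higher and 18 lower, and at an unadjusted p under 0.05 a single gene, Mylip, was higher. The 17 were 16 of the 19 enzymes, all but Ggps1, Ebp and Sc5d, together with Srebf2. LPD livers lay wholly below CD livers in 15 of the 29, against 20.1% of all genes. The median was -1.55 over the SREBP2-driven list and -0.20 over the LXR-driven transporters. With the header runs as a term 12 genes were called lower, and with the libraries of run 2 alone 16, among them Sc5d and Insig1.

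Whether the effect of the oncogenes differed between diets was tested as an interaction, the log2 fold change on LPD minus that on CD. It was below 0 and called for 15 of the 29 genes and above 0 and called for none, where 4.42% of all genes were called below 0 and 4.49% above. No gene was above 0 at an unadjusted p under 0.05 or with DESeq2. The 15 were Hmgcs1, Mvk, Pmvk, Mvd, Idi1, Fdps, Fdft1, Sqle, Lss, Cyp51, Msmo1, Nsdhl, Hsd17b7, Dhcr7 and Srebf2. In each of them the fitted oncogene effect was above 0 on CD and below 0 on LPD, and 7 of them (Hmgcs1, Mvd, Fdps, Sqle, Lss, Msmo1 and Nsdhl) were called in both directions. The value farthest from 0 was that of Hmgcs1, at -3.94 ± 0.55 (adjusted p = 0.00343). When a single library was left out, 12 to 16 genes were called below 0, and 12 of the 15 were called in each of the 12 such fits, the exceptions being Pmvk, Idi1 and Hsd17b7. With the header runs as a term 11 were called, and 11 in run 2 alone. LXR-driven genes gave no call, no unadjusted p under 0.05 and no DESeq2 call, with a median of -0.01 over the 4 transporters.

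**Figure D3:**
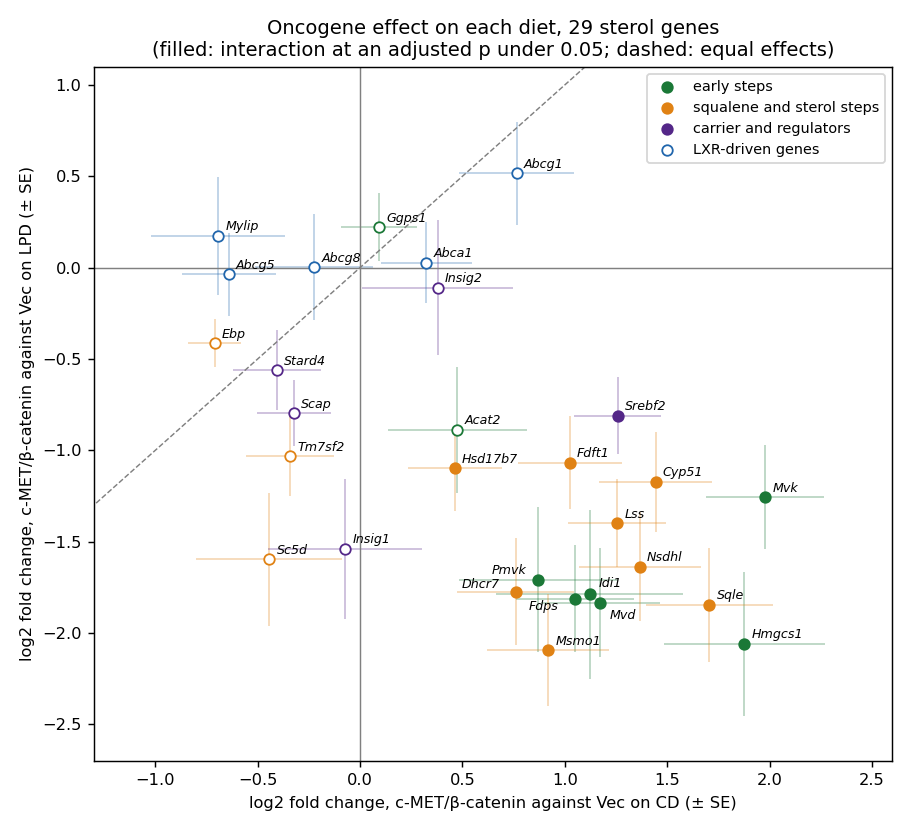
Each point is 1 of the 29 genes, with the log2 difference between oncogene and Vec livers on CD along the x axis and on LPD along the y axis, and bars of ± 1 SE. Filled points have an interaction at an adjusted p under 0.05, and the dashed line marks equal effects. All 15 filled points lie right of 0 and below 0, and the LXR-driven genes lie between -0.69 (Mylip) and 0.76 (Abcg1) on the x axis and between -0.04 and 0.51 on the y axis.

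The region before the transcription start is printed for 5 genes, chosen to set Hmgcs1 beside Srebf2, Msmo1 and Insig1, which carry near matches to the sterol regulatory element that SREBP2 binds, and beside Abcg8 as an LXR-driven gene. Each is 250 bases up to the start, 5′ to 3′ on the strand of the gene, from RefSeq on GRCm38.p6, the build that mm10 names. Capitals mark matches to the core TCACNCCAC on either strand with at most 1 mismatch in the 4 SREBP2-driven genes, and the CCAAT box in Abcg8. The regions are chr13:119690101-119690350 on the plus strand for Hmgcs1, chr15:82147019-82147268 on the plus strand for Srebf2, chr8:64733579-64733828 on the minus strand for Msmo1, chr5:28071162-28071411 on the plus strand for Insig1 and chr17:84682871-84683120 on the plus strand for Abcg8.
Hmgcs1: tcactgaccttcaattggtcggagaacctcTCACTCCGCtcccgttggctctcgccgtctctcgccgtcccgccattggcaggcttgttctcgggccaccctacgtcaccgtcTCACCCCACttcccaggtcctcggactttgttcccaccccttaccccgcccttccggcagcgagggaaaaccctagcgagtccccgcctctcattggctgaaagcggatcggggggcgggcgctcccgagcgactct
Srebf2: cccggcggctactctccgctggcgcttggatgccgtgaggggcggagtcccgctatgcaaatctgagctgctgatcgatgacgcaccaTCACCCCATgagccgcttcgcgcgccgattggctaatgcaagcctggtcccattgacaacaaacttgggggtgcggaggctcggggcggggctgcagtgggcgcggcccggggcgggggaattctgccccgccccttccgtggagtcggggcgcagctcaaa
Msmo1: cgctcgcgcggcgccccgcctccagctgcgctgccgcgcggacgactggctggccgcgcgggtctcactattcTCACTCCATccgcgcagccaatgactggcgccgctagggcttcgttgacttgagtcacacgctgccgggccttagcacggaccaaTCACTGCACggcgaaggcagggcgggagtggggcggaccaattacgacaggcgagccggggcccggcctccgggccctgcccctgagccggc
Insig1: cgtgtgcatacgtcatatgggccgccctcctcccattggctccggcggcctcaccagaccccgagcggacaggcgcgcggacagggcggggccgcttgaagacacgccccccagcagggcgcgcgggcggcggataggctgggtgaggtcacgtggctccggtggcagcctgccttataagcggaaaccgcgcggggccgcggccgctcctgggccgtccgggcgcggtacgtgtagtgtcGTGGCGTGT
Abcg8: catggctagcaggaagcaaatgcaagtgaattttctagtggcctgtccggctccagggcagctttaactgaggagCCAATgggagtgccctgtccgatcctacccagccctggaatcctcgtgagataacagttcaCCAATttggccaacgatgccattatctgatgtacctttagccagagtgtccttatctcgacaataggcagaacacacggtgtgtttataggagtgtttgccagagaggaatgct

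RefSeq promoters of 300 bases, from 250 before to 50 after the start, were at hand for 24 of the 29 genes. The exact core TCACNCCAC was found in 1 of them, Hmgcs1, beginning 137 bases before the start, and in 1.44% of all genes with a promoter. With 1 mismatch allowed, 11 of the 24 genes held it (Acat2, Hmgcs1, Cyp51, Msmo1, Nsdhl, Hsd17b7, Dhcr7, Insig1, Insig2, Srebf2 and Mylip), against 26.7% of all 27025 genes with a promoter. These 11 include genes that rose on CD (Hmgcs1, Cyp51, Msmo1, Nsdhl and Srebf2) and genes that did not pass that test (Acat2, Hsd17b7, Dhcr7, Insig1, Insig2 and Mylip). The CCAAT box, bound by NF-Y, stood on either strand in 21 of the 24 genes against 41.1% of all genes, and the box GGGCGG, bound by Sp1, in 20 against 38.2%. LXR binds a direct repeat of AGGTCA with a spacer of 4 bases, and with at most 2 mismatches over both repeats this was found in Dhcr7 alone of the 24, and in 3.47% of all genes. The promoter windows of Abcg5 and Abcg8 overlap, since their RefSeq starts lie head to head on opposite strands of chromosome 17, and exons of both genes share 82 bases. A match gives letters in a window and is not a measurement of binding.

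The early steps carry acetyl units to farnesyl diphosphate. Hmgcs1 (cytosolic HMG-CoA synthase, chr13:119690351-119708260) read 242, 80.5 and 208 CPM in CD Vec, 383, 764 and 804 in CD c-MET/β-catenin, 564, 704 and 453 in LPD Vec and 118, 174 and 121 in LPD c-MET/β-catenin. The 6 livers of CD c-MET/β-catenin and LPD Vec did not overlap the 6 livers of the other groups. Oncogenes went with 3.67-fold more Hmgcs1 on CD and 4.17-fold less on LPD, log2 fold changes of 1.88 ± 0.39 (adjusted p = 0.00326) and -2.06 ± 0.39 (adjusted p = 0.0275). The fall on LPD was not called when any 1 of the 6 LPD livers was left out. Mvk (mevalonate kinase, chr5:114444264-114460591) read 17.0, 15.1 and 31.8 CPM in CD Vec, 53.4, 104 and 95.3 in CD c-MET/β-catenin, 34.9, 42.7 and 36.1 in LPD Vec and 16.4, 15.6 and 15.5 in LPD c-MET/β-catenin. It rose most of the 29 on CD, at 1.98 ± 0.29 (adjusted p = 0.000391), and its value on LPD was -1.26 ± 0.28 (adjusted p = 0.0589). Here CD c-MET/β-catenin stood above all other groups. Mvd (mevalonate diphosphate decarboxylase, chr8:122433596-122443422) read 19.2, 25.4 and 24.0 CPM in CD Vec, 26.3, 63.7 and 64.8 in CD c-MET/β-catenin, 48.3, 46.8 and 37.5 in LPD Vec and 10.02, 15.1 and 11.98 in LPD c-MET/β-catenin. Replicate 1 of CD c-MET/β-catenin was only just above CD Vec replicate 2. Fdps (farnesyl diphosphate synthase, chr3:89093588-89101967) read 207, 111 and 215 CPM in CD Vec, 235, 433 and 435 in CD c-MET/β-catenin, 310.5, 387 and 304 in LPD Vec and 79.8, 120.1 and 85.0 in LPD c-MET/β-catenin. It rose on CD at 1.05 ± 0.29 (adjusted p = 0.0141) and fell on LPD at -1.81 ± 0.29 (adjusted p = 0.0104).

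Pmvk, Idi1 and Acat2 had the same order or nearly so with wider scatter. Pmvk (phosphomevalonate kinase) read 51.9, 17.8 and 47.0 CPM in CD Vec, 48.3, 90.6 and 74.8 in CD c-MET/β-catenin, 61.3, 74.1 and 41.2 in LPD Vec and 13.4, 24.7 and 15.9 in LPD c-MET/β-catenin. Idi1 (isopentenyl diphosphate isomerase) read 19.8, 11.5 and 30.0 CPM in CD Vec, 19.99, 53.2 and 60.6 in CD c-MET/β-catenin, 49.7, 69.0 and 41.2 in LPD Vec and 10.5, 23.4 and 12.3 in LPD c-MET/β-catenin. For both genes CD c-MET/β-catenin replicate 1 lay inside the CD Vec range, and LPD c-MET/β-catenin replicate 2 was the highest of its group. Neither passed edgeR's test with oncogenes on CD or LPD, whereas DESeq2 called both lower on LPD (adjusted p = 0.000795 for Pmvk and 0.00275 for Idi1) and Idi1 higher on CD (adjusted p = 0.0334). By edgeR both were lower on LPD than CD with oncogenes, at -1.98 ± 0.40 (adjusted p = 0.00641) for Pmvk and -1.53 ± 0.46 (adjusted p = 0.0373) for Idi1. The Idi1 call ended when replicate 2 or 3 of CD c-MET/β-catenin, replicate 1 of LPD Vec, or replicate 1 or 3 of LPD c-MET/β-catenin was left out. Acat2 (acetyl-CoA acetyltransferase, which starts the pathway) read 85.1, 45.8 and 68.0 CPM in CD Vec, 41.8, 120.2 and 115 in CD c-MET/β-catenin, 81.9, 85.9 and 62.4 in LPD Vec and 36.8, 49.5 and 38.1 in LPD c-MET/β-catenin, and passed only the test between diets with oncogenes, at -1.15 ± 0.35 (adjusted p = 0.036). CD c-MET/β-catenin replicate 1 lay among the LPD c-MET/β-catenin livers in Acat2, and the call was lost without any of the other 5 oncogene livers. Ggps1 (geranylgeranyl diphosphate synthase, which serves protein prenylation and not sterols) ranged from 5.66 to 8.70 CPM over the 12 livers. Groups overlapped in all 4 comparisons of 2 groups, and its log2 fold changes lay between -0.17 and 0.22.

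**Figure D4:**
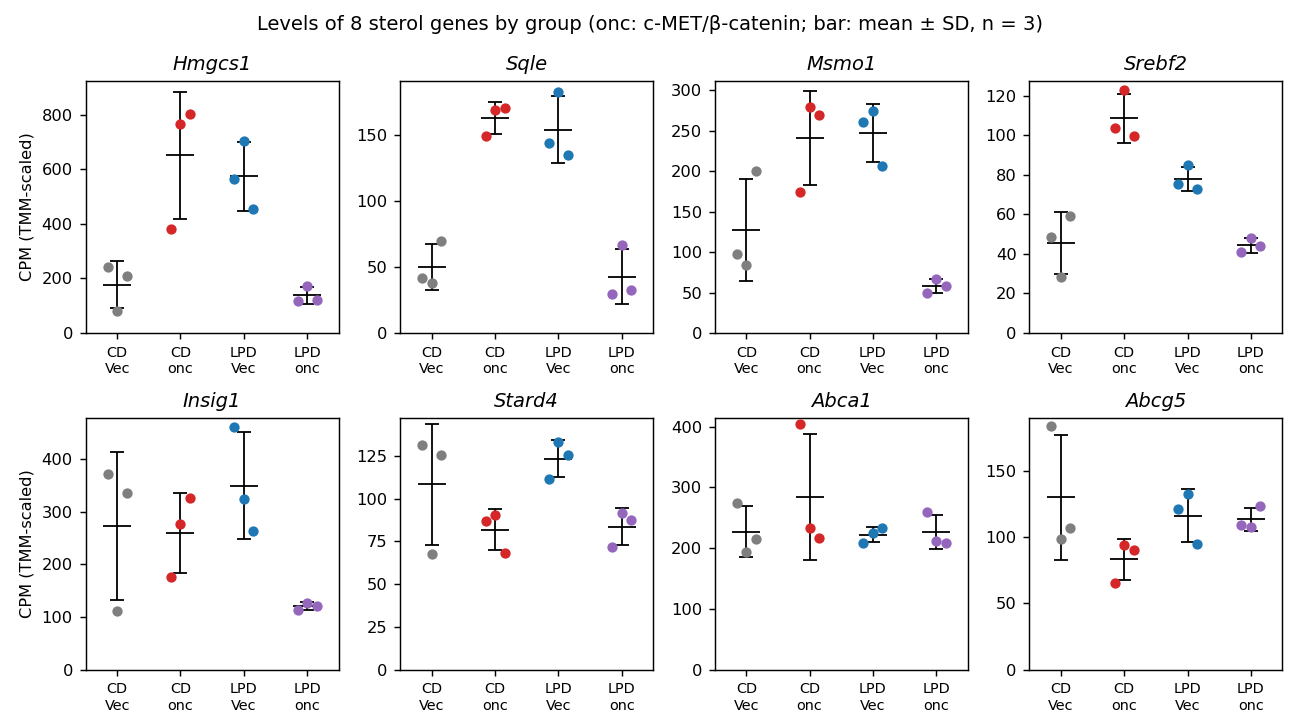
TMM-scaled CPM of 8 genes, 1 point for each library, with black bars for the mean ± SD of 3 libraries and onc for c-MET/β-catenin. In Hmgcs1 and Sqle the libraries of CD c-MET/β-catenin and LPD Vec lie above all libraries of the other groups, while Abca1 overlaps in all 4 groups.

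The later steps turn farnesyl units into squalene and sterols. Sqle (squalene epoxidase, a rate-limiting enzyme, chr15:59315092-59331193) read 41.6, 37.8 and 69.9 CPM in CD Vec, 149, 169 and 169.8 in CD c-MET/β-catenin, 144, 182 and 135 in LPD Vec and 29.1, 66.3 and 32.5 in LPD c-MET/β-catenin. The groups split into a high pair and a low pair with no overlap between them. With oncogenes it was 3.26-fold higher on CD, at 1.71 ± 0.31 (adjusted p = 0.00145), and 3.60-fold lower on LPD, at -1.85 ± 0.31 (adjusted p = 0.014). Leaving out LPD Vec replicate 1 or 2 ended the call on LPD. Msmo1 (methylsterol monooxygenase, chr8:64718123-64733578) read 97.4, 84.6 and 199.9 CPM in CD Vec, 174, 279 and 269 in CD c-MET/β-catenin, 261, 274 and 207 in LPD Vec and 49.1, 67.1 and 57.5 in LPD c-MET/β-catenin. CD Vec replicate 3 lay above CD c-MET/β-catenin replicate 1, so these groups overlapped. Its rise on CD (0.92 ± 0.30, adjusted p = 0.0313) was lost without any 1 of 4 libraries, CD Vec replicate 1 or 2 and CD c-MET/β-catenin replicate 2 or 3, with adjusted p up to 0.108. Its fall on LPD (-2.09 ± 0.31, adjusted p = 0.00756) was the largest of the 29. Lss (lanosterol synthase, chr10:76531565-76557139) read 48.3, 33.1 and 58.3 CPM in CD Vec, 83.8, 130.1 and 119.7 in CD c-MET/β-catenin, 70.8, 84.8 and 56.8 in LPD Vec and 24.4, 33.3 and 22.8 in LPD c-MET/β-catenin. Nsdhl (a sterol dehydrogenase, chrX:72918521-72958528) read 59.5, 34.2 and 74.0 CPM in CD Vec, 114, 159 and 159 in CD c-MET/β-catenin, 119, 134 and 101 in LPD Vec and 29.3, 54.4 and 29.9 in LPD c-MET/β-catenin. Both were higher in CD c-MET/β-catenin than CD Vec with no overlap, at 1.25 ± 0.24 and 1.37 ± 0.30, and lower in LPD c-MET/β-catenin than LPD Vec, at -1.40 ± 0.24 and -1.64 ± 0.30, with adjusted p of 0.00185, 0.00416, 0.0149 and 0.0214 from edgeR.

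Fdft1 (squalene synthase) and Cyp51 (lanosterol demethylase) rose on CD without a call on LPD. Fdft1 read 98.1, 77.9 and 129 CPM in CD Vec, 134, 252 and 234 in CD c-MET/β-catenin, 178, 198 and 142 in LPD Vec and 71.1, 100.4 and 75.3 in LPD c-MET/β-catenin. Cyp51 read 103, 121 and 154 CPM in CD Vec, 239.8, 415 and 371 in CD c-MET/β-catenin, 242, 310.3 and 225 in LPD Vec and 87.8, 164 and 92.9 in LPD c-MET/β-catenin. In both genes LPD c-MET/β-catenin lay wholly below LPD Vec, although the adjusted p by edgeR was 0.0666 for Fdft1 and 0.0633 for Cyp51. Dhcr7 and Hsd17b7, a reductase and a ketoreductase of the sterol steps, had the reverse pattern of calls. Dhcr7 read 104, 50.4 and 126 CPM in CD Vec, 123, 159 and 193 in CD c-MET/β-catenin, 124, 147 and 123 in LPD Vec and 40.8, 44.2 and 30.1 in LPD c-MET/β-catenin. Its log2 fold change was 0.76 ± 0.29 (adjusted p = 0.0574) on CD and -1.77 ± 0.29 (adjusted p = 0.0123) on LPD. Hsd17b7 read 73.9, 41.7 and 93.7 CPM in CD Vec, 92.9, 102 and 94.0 in CD c-MET/β-catenin, 113, 109 and 97.1 in LPD Vec and 43.2, 59.5 and 46.1 in LPD c-MET/β-catenin, and fell on LPD at -1.10 ± 0.23 (adjusted p = 0.0403), a call that was kept only without CD Vec replicate 2 or 3. A call in 1 diet and not the other is no test of a difference, and the interaction was called for all 4 of these genes.

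Tm7sf2, Ebp and Sc5d, a reductase, an isomerase and a desaturase of the sterol steps, were the 3 enzymes with a fitted value below 0 with oncogenes on CD, and Ebp was called. Ebp (chrX:8185329-8193512) read 208, 261 and 236 CPM in CD Vec, 133, 137 and 161 in CD c-MET/β-catenin, 197, 183 and 186 in LPD Vec and 133, 134 and 158 in LPD c-MET/β-catenin. Both oncogene groups lay below their Vec groups, with -0.71 ± 0.13 (adjusted p = 0.0014) on CD and -0.41 ± 0.13 (adjusted p = 0.187) on LPD. Tm7sf2 read 145, 145 and 183 CPM in CD Vec, 89.1, 128 and 157 in CD c-MET/β-catenin, 166, 175 and 139 in LPD Vec and 61.0, 97.5 and 76.0 in LPD c-MET/β-catenin, with -0.34 ± 0.21 on CD and a fall on LPD (-1.03 ± 0.22, adjusted p = 0.04) that was lost without CD Vec replicate 1, CD c-MET/β-catenin replicate 2, any LPD Vec library, or replicate 1 or 3 of LPD c-MET/β-catenin. Its call between diets with oncogenes (-0.67 ± 0.22, adjusted p = 0.0463) was lost without any of 8 libraries. Sc5d read 425, 162 and 415 CPM in CD Vec, 133, 256 and 348 in CD c-MET/β-catenin, 451, 445 and 474 in LPD Vec and 167, 141 and 145 in LPD c-MET/β-catenin. LPD c-MET/β-catenin was below LPD Vec in every library of Sc5d, at -1.60 ± 0.36 (adjusted p = 0.0609), short of the threshold.

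Among the regulators, mRNA of the factor itself moved with the enzymes, while its protein and cleavage were not measured. Srebf2 (chr15:82147269-82205379) read 48.4, 28.4 and 59.3 CPM in CD Vec, 103, 123 and 99.5 in CD c-MET/β-catenin, 75.6, 84.8 and 73.0 in LPD Vec and 40.8, 48.2 and 44.0 in LPD c-MET/β-catenin. CD c-MET/β-catenin was above LPD Vec, and LPD Vec above both other groups, with no overlap at either step. Srebf2 rose with oncogenes on CD at 1.26 ± 0.21 (adjusted p = 0.000846), and on LPD its value was -0.81 ± 0.21 (adjusted p = 0.0958). Insig1, an SREBP2 target that restrains the pathway, read 371, 112 and 336 CPM in CD Vec, 176, 276 and 326 in CD c-MET/β-catenin, 461, 325 and 262 in LPD Vec and 112, 128 and 120.3 in LPD c-MET/β-catenin. Unlike the enzymes that rose, its fold change on CD was -0.07 ± 0.38 (adjusted p = 0.901), with both groups spread widely, and CD Vec replicate 2 was at the level of LPD c-MET/β-catenin. On LPD all oncogene livers were below all Vec livers (-1.54 ± 0.38, adjusted p = 0.0836). DESeq2 called Insig1 lower with oncogenes on LPD (-1.55, adjusted p = 0.00267), between diets with oncogenes (log2 fold change -1.12) and in the interaction (-1.475), where edgeR did not.

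Stard4, Insig2 and Scap gave no call by edgeR, although DESeq2 called Scap lower with oncogenes on LPD (-0.81, adjusted p = 0.00326). Stard4, which carries cholesterol between membranes, read 132, 67.9 and 125 CPM in CD Vec, 86.9, 90.2 and 68.2 in CD c-MET/β-catenin, 111, 133 and 125 in LPD Vec and 71.6, 91.6 and 87.6 in LPD c-MET/β-catenin. Both oncogene groups were lower on average, at -0.41 ± 0.22 on CD and -0.56 ± 0.22 on LPD, with an interaction of -0.15 ± 0.31. Without CD Vec replicate 2 it was called lower on CD, at -0.66 (adjusted p = 0.00656 by edgeR). Scap read 186, 130.1 and 211 CPM in CD Vec, 115, 159 and 146 in CD c-MET/β-catenin, 191, 205 and 221 in LPD Vec and 131, 106 and 117 in LPD c-MET/β-catenin, with LPD c-MET/β-catenin wholly below LPD Vec (-0.80 ± 0.18, adjusted p = 0.0577). Insig2, the second Insig protein, read 275, 119.97 and 197 CPM in CD Vec, 390.4, 129.7 and 250.5 in CD c-MET/β-catenin, 228, 248 and 258 in LPD Vec and 299.8, 200.2 and 179.6 in LPD c-MET/β-catenin. Its groups overlapped in all 4 comparisons, and CD c-MET/β-catenin alone ranged from 129.7 to 390.4 CPM.

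As a set, the LXR-driven genes did not mirror the SREBP2-driven list, but single genes differed. Abcg5 and Mylip had values opposite in sign to its median on CD, between diets with oncogenes and in the interaction. Abca1 and Abcg1 had the sign of that median in all of these, and Abcg8 only between diets with oncogenes. Abca1, which loads cholesterol on nascent high-density lipoprotein, read 274, 194 and 215 CPM in CD Vec, 404, 233 and 217 in CD c-MET/β-catenin, 209, 225 and 233 in LPD Vec and 259, 212 and 208 in LPD c-MET/β-catenin. Apart from CD c-MET/β-catenin replicate 1, all libraries lay between 194 and 274 CPM. Abcg5 and Abcg8, whose products pair to excrete sterols into bile, were not called alike. Abcg5 (chr17:84658174-84683011) read 184, 98.7 and 107 CPM in CD Vec, 65.6, 94.3 and 90.1 in CD c-MET/β-catenin, 122, 133 and 94.6 in LPD Vec and 109, 108 and 124 in LPD c-MET/β-catenin. It fell on CD at -0.64 ± 0.23 (adjusted p = 0.0466), a call that was kept only without CD Vec replicate 2 or 3 or LPD Vec replicate 3 (adjusted p up to 0.229 elsewhere). Between diets with oncogenes Abcg5 was not called, at 0.45 ± 0.23 (adjusted p = 0.196 by edgeR), although LPD livers lay wholly above CD livers. Abcg8 (chr17:84676302-84700333) read 188, 97.3 and 147 CPM in CD Vec, 71.0, 154 and 145 in CD c-MET/β-catenin, 125, 132 and 94.8 in LPD Vec and 119, 103 and 131 in LPD c-MET/β-catenin, with -0.22 ± 0.29 (adjusted p = 0.578) on CD. The difference between the Abcg5 and Abcg8 values was not tested.

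Abcg1 and Mylip were low in liver. Abcg1, a sterol exporter prominent in macrophages, read 6.93, 3.18 and 6.87 CPM in CD Vec, 10.7, 8.12 and 10.03 in CD c-MET/β-catenin, 5.28, 5.87 and 4.26 in LPD Vec and 5.62, 8.18 and 8.22 in LPD c-MET/β-catenin. CD c-MET/β-catenin was wholly above CD Vec, at 0.76 ± 0.28 (adjusted p = 0.0518), just over the threshold by edgeR. It was called higher by DESeq2 (adjusted p = 0.0308), with total counts (0.0146), and without CD Vec replicate 1 (0.0478) or 3 (0.0474). The 8 macrophage and Kupffer cell markers summed to 114 to 223 CPM in CD Vec, 306 to 346 in CD c-MET/β-catenin, 158 to 205 in LPD Vec and 215 to 381 in LPD c-MET/β-catenin, with none at 0 in all libraries. Of these markers 4 were called higher with oncogenes on CD and none on LPD, and their part in the Abcg1 values was not tested. Mylip, an E3 ubiquitin ligase that limits lipoprotein uptake, read 9.98, 5.29 and 9.27 CPM in CD Vec, 6.33, 4.08 and 4.75 in CD c-MET/β-catenin, 10.5, 9.38 and 4.72 in LPD Vec and 7.38, 8.74 and 11.7 in LPD c-MET/β-catenin. It was not called, with -0.69 ± 0.33 (adjusted p = 0.121) on CD and 0.87 ± 0.33 (adjusted p = 0.0816) between diets with oncogenes, although LPD c-MET/β-catenin lay wholly above CD c-MET/β-catenin.

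Markers of other cell types are given for the enzyme counts too. The 6 stellate cell markers summed to 200.4 to 259.8 CPM in CD Vec, 203 to 454 in CD c-MET/β-catenin, 201 to 236 in LPD Vec and 203 to 269 in LPD c-MET/β-catenin. The 5 endothelial markers summed to 89.9 to 187 CPM in CD Vec, 98.4 to 147 in CD c-MET/β-catenin, 122 to 205 in LPD Vec and 145 to 187 in LPD c-MET/β-catenin, and the 5 cholangiocyte markers to 36.8 to 46.3 CPM in CD Vec, 121 to 382 in CD c-MET/β-catenin, 48.9 to 57.6 in LPD Vec and 40.8 to 52.7 in LPD c-MET/β-catenin. The 5 T and NK cell markers stayed at or below 4.99 CPM in sum and the 3 B cell markers at or below 3.18 CPM. The 3 markers of cycling cells summed to 1.76 to 6.87 CPM in CD Vec, 88.9 to 122 in CD c-MET/β-catenin, 3.17 to 3.74 in LPD Vec and 11.7 to 35.5 in LPD c-MET/β-catenin. The cycling sum stood out in CD c-MET/β-catenin, with 3 of 3 markers called higher on CD. So did the cholangiocyte sum, in which Spp1 (2.87) and Krt19 (2.91) were called higher on CD and Spp1 was the most abundant (253 CPM on average in CD c-MET/β-catenin), while Epcam (-0.50), Sox9 (-0.41) and Krt7 (0.33) were not called on CD. Of 6 stellate markers 2 were higher and 2 lower on CD, 1 of 5 endothelial markers was lower and 1 of 5 T and NK cell markers was higher. Their part in the rise of the enzymes there was not tested. In the fall of the enzymes on LPD, both LPD groups overlapped in the sums of stellate, endothelial and cholangiocyte markers, while the macrophage, T and NK cell, cycling and β-catenin sums were higher with oncogenes. Their part in that fall was not tested. Between diets with oncogenes, 3 of 3 cycling, 2 of 3 β-catenin and 2 of 5 cholangiocyte markers were lower on LPD, as were 2 of 8 macrophage, 2 of 6 stellate and 1 of 5 hepatocyte markers, while 2 stellate markers and 1 of 5 endothelial markers were higher. In the interaction 3 of 3 β-catenin markers, 2 of 5 cholangiocyte markers and 1 marker each of cycling cells, macrophages and stellate cells were below 0, and 1 stellate and 1 endothelial marker above 0. Their part in the diet differences and interactions of the enzymes was not tested.

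Compared per kilobase of annotated exon (the union over all transcripts of a gene), so that genes can be set side by side, the most abundant of the 29 in CD Vec were Ebp (102 CPM per kilobase), Insig1 (88.2) and Sc5d (68.7), none of which rose with oncogenes on CD. In CD c-MET/β-catenin they were Hmgcs1 (142), Fdps (87.4) and Insig1 (83.9). In LPD Vec the order was Hmgcs1 (125), Insig1 (113) and Sc5d (93.9). In LPD c-MET/β-catenin it was Insig2 (65.2), Ebp (61.4) and Abcg5 (41.8), with Hmgcs1 at 29.9. Abcg1 and Ggps1 were the least abundant in CD Vec, at 0.776 and 1.501 CPM per kilobase. Counting by strand is not stated, and 11 of the 29 genes share exon bases with another gene of GENCODE M21, 5 of them over more than 10% of their exon length (Hmgcs1, Fdps, Fdft1, Tm7sf2 and Scap), so reads there may be split or lost.

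Scatter between mice of a group was shared by most genes of the pathway. CD Vec replicate 2 was the lowest of its group in 18 of the 22 SREBP2-driven genes, with Hmgcs1 at 80.5 CPM and Insig1 at 112 CPM. CD c-MET/β-catenin replicate 1 was the lowest of its group in 19 of the 22. LPD Vec replicate 3 was the lowest in 17, and LPD c-MET/β-catenin replicate 2 the highest in 18. CD Vec replicate 2 was also lowest in all 4 LXR-driven transporters.

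Other genes of sterol handling were followed through a list of 35, of which all were in the table and 34 were tested. With oncogenes on CD 10 rose and 10 fell, on LPD and between diets in Vec none was called, and between diets with oncogenes 4 were higher and 8 lower on LPD. Over all genes 18.7% rose and 16.7% fell on CD, against 29.4% of the 34 in each direction. Between diets with oncogenes 8.66% of all genes were higher and 11.3% lower. At an unadjusted p under 0.05 the counts without a call were 4 higher and 3 lower with oncogenes on LPD and 3 and 1 between diets in Vec. Of all 13947 genes, 1545 and 1377 had such a p in either direction. DESeq2 called 1 higher and 2 lower with oncogenes on LPD, and 1 and 0 between diets in Vec. Part of the enzyme pattern was shared by Tmem97 (an endoplasmic reticulum protein that binds sterols) and Lbr (a sterol reductase and lamin receptor). Between diets in Vec their values were 0.04 ± 0.13 and 0.42 ± 0.17, not called. Tmem97 read 71.3, 76.3 and 81.4 CPM in CD Vec, 103, 143 and 129 in CD c-MET/β-catenin, 78.7, 83.9 and 73.0 in LPD Vec and 57.2, 62.3 and 50.5 in LPD c-MET/β-catenin. Lbr read 11.7, 8.93 and 13.5 CPM in CD Vec, 27.3, 23.3 and 24.1 in CD c-MET/β-catenin, 13.4, 16.8 and 15.5 in LPD Vec and 11.4, 14.2 and 10.6 in LPD c-MET/β-catenin. They rose with oncogenes on CD (0.71 ± 0.14 and 1.13 ± 0.17), were lower on LPD than CD in oncogene livers (-1.14 ± 0.14 and -1.04 ± 0.17), and had interactions of -1.18 ± 0.19 and -1.47 ± 0.25, with adjusted p of 0.00577 and 0.00698 by edgeR.

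Some genes of uptake and transport in that list rose on CD and others fell. Npc1, the lysosomal partner of Npc2, and Osbp, a sterol exchanger, fell (-0.60 ± 0.21 and -0.39 ± 0.12), and these 2 were named after their values were seen. Scarb1, the high-density lipoprotein receptor, had a log2 fold change of 0.83 ± 0.16, and Npc2, a lysosomal sterol carrier, 0.67 ± 0.14. Gramd1a and Gramd1b, which move sterol from the plasma membrane to the endoplasmic reticulum, rose by 1.07 ± 0.19 and 2.89 ± 0.31. All 4 were lower on LPD than on CD in oncogene livers, from -0.62 (Gramd1a) to -2.27 (Gramd1b). Npc1l1, the sterol importer, had at most 0.156 CPM in any Vec liver and read 4.71, 12.3 and 4.68 CPM in CD c-MET/β-catenin and 0.391, 0.211 and 0.0875 CPM in LPD c-MET/β-catenin. Its counts were at most 3 in any Vec liver and 8, 6 and 2 in LPD c-MET/β-catenin. It thus passed the filter on low counts only through CD c-MET/β-catenin, where it is high, and its calls rest on that group. The log2 fold changes named here passed the test by edgeR, and for Npc1l1 only levels are given. Genes that fell on CD included Stard5, a sterol carrier (-1.25 ± 0.18), Acat1, the mitochondrial thiolase (-1.05 ± 0.21), Aacs, which feeds acetoacetate into the cytosolic pathway (-1.41 ± 0.34), and Cyp27a1, an oxysterol and bile acid enzyme (-0.52 ± 0.14). Of these, Stard5 and Acat1 were higher on LPD than CD with oncogenes, by 0.91 ± 0.18 and 0.93 ± 0.21.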

How the data were processed

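The values deposited by the authors were raw read counts per gene in 1 table, with Entrez identifiers and a column for each library. Per the methods and the submitters' processing notes, reads were aligned to mm10 with HISAT2, counted with featureCounts and tested with DESeq. Versions, strand setting and treatment of reads with several matches are not given in the sources used here. The labels name an rRNA depletion kit and the methods a stranded mRNA kit. Human c-MET was not measured. In column names chow appears as HPD, and in titles the vector appears as WT.

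Identifiers were given symbols from a gene name table and GENCODE M21 (25275 and 18 genes, 1886 unmatched). Counts were fitted in edgeR 4.0.16 (R 4.3.3, limma 3.58.1) with filterByExpr, TMM factors of 0.8638 to 1.122 and a robust quasi-likelihood fit with 1 coefficient for each of 4 groups over all 12 libraries and no covariate. SE was the absolute log2 fold change divided by the square root of F. The biological coefficient of variation was 23.17%. Before TMM scaling, 1 CPM was 19.48 counts at the smallest total. List averages used log2 CPM with a prior count of 2. Each library came from 1 mouse, so p-values rest on the spread between mice within groups. That spread was pooled over the 4 groups, drawn toward that of other genes, and includes any difference between header runs. DESeq2 1.42.0, other scalings, no filter, a replicate block, the runs in the header and leaving out each library were alternatives. The script recovered changes set in simulated counts. The 29 genes, the lists and the marker genes were chosen with earlier results of these data known. All 29 are named, and of 35 other sterol genes at most 12, taken by the smallest adjusted p over the 5 comparisons. Some genes of sterol metabolism are not reported here.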

Additional observations from a re-analysis of the deposited data

Results flagged for a closer look

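An effect of the oncogenes that differed between diets, by the interaction of the edgeR fit at an adjusted p under 0.05, was found for 19 genes of sterol metabolism. Among the 29 genes it was found for 15, all below 0, where 4.42% of all genes were called below 0 and 4.49% above. The other 4 were 3 below 0 and 1 above of 34 other sterol genes tested, 8.82% and 2.94%. The interaction, the log2 fold change on LPD minus that on CD, was -3.94 for Hmgcs1, -3.24 for Mvk, -2.58 for Pmvk, -3.01 for Mvd, -2.91 for Idi1 and -2.86 for Fdps in the early steps. In the later steps it was -2.09 for Fdft1, -3.55 for Sqle, -2.65 for Lss, -2.61 for Cyp51, -3.01 for Msmo1, -3.003 for Nsdhl, -1.56 for Hsd17b7 and -2.53 for Dhcr7. It was -2.07 for Srebf2. Among the other sterol genes it was -1.66 for Gramd1b, -1.47 for Lbr, -1.18 for Tmem97 and 0.88 for Stard5. Groups of 3 were too small for the test of single outlying libraries.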

How the results depend on the processing

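For the 29 genes, no called value of a single gene changed sign under any of the 20 alternatives. Of 2871 recomputed values, 142 lost and 82 gained a call. Values without a call changed sign 86 times, in 32 of 145 pairs of a gene and a comparison. Directions of the SREBP2-driven medians were kept in all of them. Counts of calls depended on the setting, and the cause was not tested.

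On CD, 4933 genes were called over the whole table, against 3014 with only the groups compared in the fit, 945 with the header runs as a term and 1745 in run 2 alone, a fit of the 7 libraries of that run chosen after the data were seen. The 11 sterol genes higher on CD became 1 with the header runs and 4 in run 2 alone. The 2 lower ones became 1 with total counts, only the groups compared or the replicate block, 1 in run 2 alone (Stard4 in place of Ebp and Abcg5), 0 with the header runs, and 1 to 5 when a library was left out. The LXR-driven median on CD went from 0.05 to 0.33 with total counts, a scaling that moved the median of all genes to 0.28 on CD, 0.12 on LPD and -0.16 in the interaction. That LXR-driven median was negative when CD Vec replicate 2 was left out. On LPD, 184 genes became 476 with DESeq2, 505 with only the groups compared, 75 with the header runs and 52 to 254 when a library was left out. The 10 lower sterol genes became 19, 18 and 1 to 16 under DESeq2, only the groups compared and a library left out.

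Between diets in Vec, 43 genes became 66 with total counts, 338 with DESeq2, 3 with only the groups compared, 16 with the header runs, 136 in run 2 alone and 5 to 104 when a library was left out. The 0 higher sterol genes became 1 with total counts, 5 with DESeq2 and 0 to 1 when a library was left out, and the SREBP2-driven median of 0.69 was 0.28 in run 2 alone. Between diets with oncogenes, 2784 genes became 618 with the header runs, 1720 in run 2 alone and 1585 to 3660 when a library was left out, with 0 to 1 sterol genes higher and an SREBP2-driven median from -1.94 to -1.36. For the interaction, 1243 genes became 2042 with DESeq2, 85 with the header runs, 390 in run 2 alone and 391 to 1404 when a library was left out, with SREBP2-driven medians from -2.77 to -2.23 and LXR-driven medians from -0.22 to 0.24.

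Same-numbered libraries did not deviate together (18 pairs of deviations, correlations from -0.1831 to 0.1671, 2 above 0.1), so the numbers give no pairing. With the replicate block, 11 sterol genes were higher and 1 lower on CD, 9 were lower on LPD, 0 were called between diets in Vec, 16 were lower between diets with oncogenes and 15 were below 0 in the interaction, while genes called over the whole table went to 16 between diets in Vec and 812 in the interaction. The sterol regulatory element core was found in 1 sterol gene exactly and in 11 with 1 mismatch allowed, a reading added after the data were seen.

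Abcg1, Ggps1 and Mylip had the lowest CPM of the 29 genes, so counting error weighs most there. Groups of 3 mice and the runs in the header, which are unevenly spread over the groups, limit every comparison, the interaction included. Between diets with oncogenes, 2 of 3 CD libraries were in run 1 and all 3 LPD libraries in run 2.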
